A study of Mus musculus with 9 samples.

Results

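The proteasome genes were the protein-coding genes of the liver count table whose symbol begins with Psm, a class letter from a to g and a digit, and that had 1 or more counts in 3 or more libraries. The table held 50 such genes and 49 met the count rule, out of 27179 genes in all. Psma8, an alpha subunit known from testis, had counts in 2 libraries and was left out. Of the 49 genes, 14 encode the alpha and beta rings of the core particle, 17 the regulatory particle, 3 the inducible catalytic subunits, 1 the thymic subunit, 4 activators, 1 an inhibitor and 7 assembly chaperones. The other 2, Psmc3ip and Psme3ip1, match by symbol and encode no subunit. Each of the 49 genes passed the filter on low counts.

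Bulk RNA sequencing compared livers of 2 genotypes, Apoe-/- (5 libraries) and Mif-2-/-Apoe-/- (4 libraries), in female mice on a C57BL/6 background that received a cholesterol-rich HFD for 12 weeks from 8 weeks of age. Both genotypes lack apolipoprotein E, and the comparison asks what the global loss of Mif-2, a cytokine gene also called Ddt, changes in such a liver. Each library was made by the Smart-seq2 method from a lysate of several frozen liver sections, so it holds RNA of all the cells in those sections. The study's heatmap legend gives 4 mice per group, while 5 Apoe-/- libraries are labelled. The sources used here do not tie the libraries to single mice. The 5 Apoe-/- libraries thus need not be 5 animals, and p-values and SDs measure the spread between libraries.

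The proteasome is the large protease that degrades proteins tagged with ubiquitin. Its barrel-shaped core particle stacks rings of alpha subunits, which gate the entry, around rings of beta subunits, some of which cut peptide bonds. The regulatory particle caps the barrel, binds the tagged protein, removes the ubiquitin and feeds the unfolded chain in with a ring of ATPases. Interferon induces other catalytic beta subunits, which form the immunoproteasome and change the peptides presented on MHC class I. Subunit genes are known to be controlled together, by Nfe2l1 in particular when the protease is short of capacity, and the liver, with its high output of secreted proteins, depends on this disposal route.

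Values are CPM, counts scaled to 1000000 per library after removal of the 10 most abundant genes and TMM scaling, and a fold change is the log2 ratio of Apoe-/- over Mif-2-/-Apoe-/- livers. Total counts ranged from 2318148 to 10764182 per library. Ddt was at 233 to 972 CPM in the Apoe-/- libraries against at 2.51 to 5.49 CPM in the Mif-2-/-Apoe-/- libraries, as the labels say. The liver markers were abundant, with a summed level of 62741 to 195245 CPM for 9 hepatocyte genes in Apoe-/- and of 62774 to 193288 CPM in Mif-2-/-Apoe-/- libraries. In both genotypes these ranges were set by libraries that stood apart. Apoe-/- replicate 5 held the lowest sum and the lowest share of counts in the 10 most abundant genes of its genotype, 14.7% against 20.5% to 23.7% in replicates 1 to 4. Mif-2-/-Apoe-/- replicate 2 held the highest of its genotype, 26.3% against 12.5% to 17.0% in the other 3.

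Most proteasome genes had a fold change above 0, that is a higher fitted level in Apoe-/- livers, while the edgeR quasi-likelihood test with Benjamini-Hochberg adjustment over 16860 genes called 1 of the 49 genes, Psmd13, a lid subunit of the regulatory particle. Of the 49, 43 had a fold change above 0, against 43.5% of all genes tested. Their median log2 fold change was 0.72, against -0.17 over all genes tested. Among the 43 members with a mean of at least 10 CPM, 40 were above 0, against 48.5% of all genes that abundant, and the medians were 0.74 and -0.03. The edgeR call rate over all genes was 0.13% at the adjusted threshold, and at an unadjusted p under 0.05 it was 6.52% for genes higher in Apoe-/- livers. By that unadjusted rule 18 members were higher in Apoe-/- livers and 0 lower. DESeq2 called 4 members (Psmb4, Psmc3, Psmc3ip and Psmd13), against 4.93% of the 14686 genes to which it gave an adjusted p. Without the 2 genes that match by symbol only, 42 of 47 were above 0, 17 met the unadjusted rule and DESeq2 called 3. Psmc3ip, among those 2, passed the filter only through Apoe-/- libraries. Psmb11 is among the 47, and its value above 0 rests on Apoe-/- replicate 5. The 2 genotypes did not overlap for 3 members, Psmd13, Psmc1 and Psme3, each higher in Apoe-/- livers, against 2.24% of all genes. The plot of fold changes by class shows this lean to one side beside its errors, and the heatmap shows which libraries carry it.

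**Figure D1:**
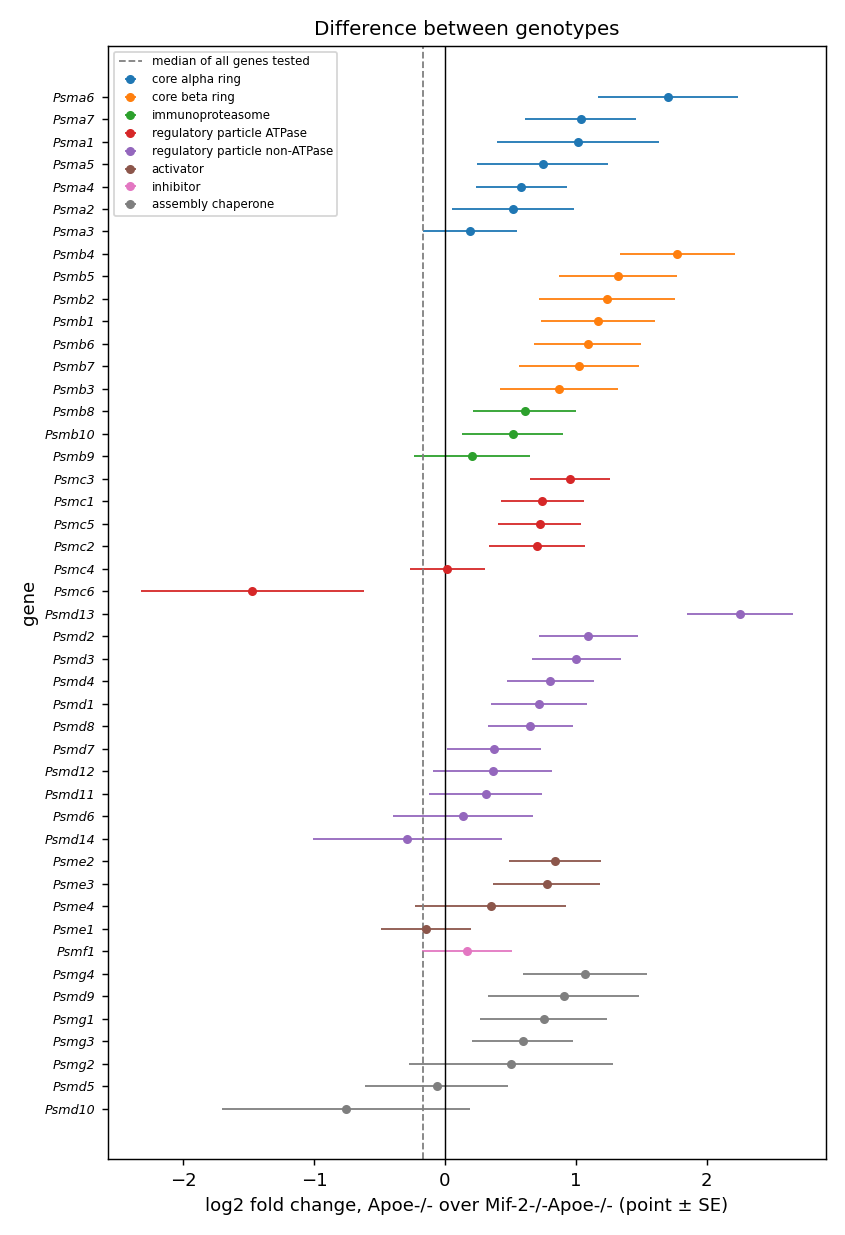
Log2 fold change (point) and SE (bar) of 46 proteasome genes by class, Apoe-/- (n = 5) over Mif-2-/-Apoe-/- (n = 4) libraries, with the median of all genes tested, -0.17, as a dashed line. All 14 core genes lie to the right of 0, Psmd13 lies farthest right at 2.25, and Psmc6 lies farthest left at -1.47.

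**Figure D2:**
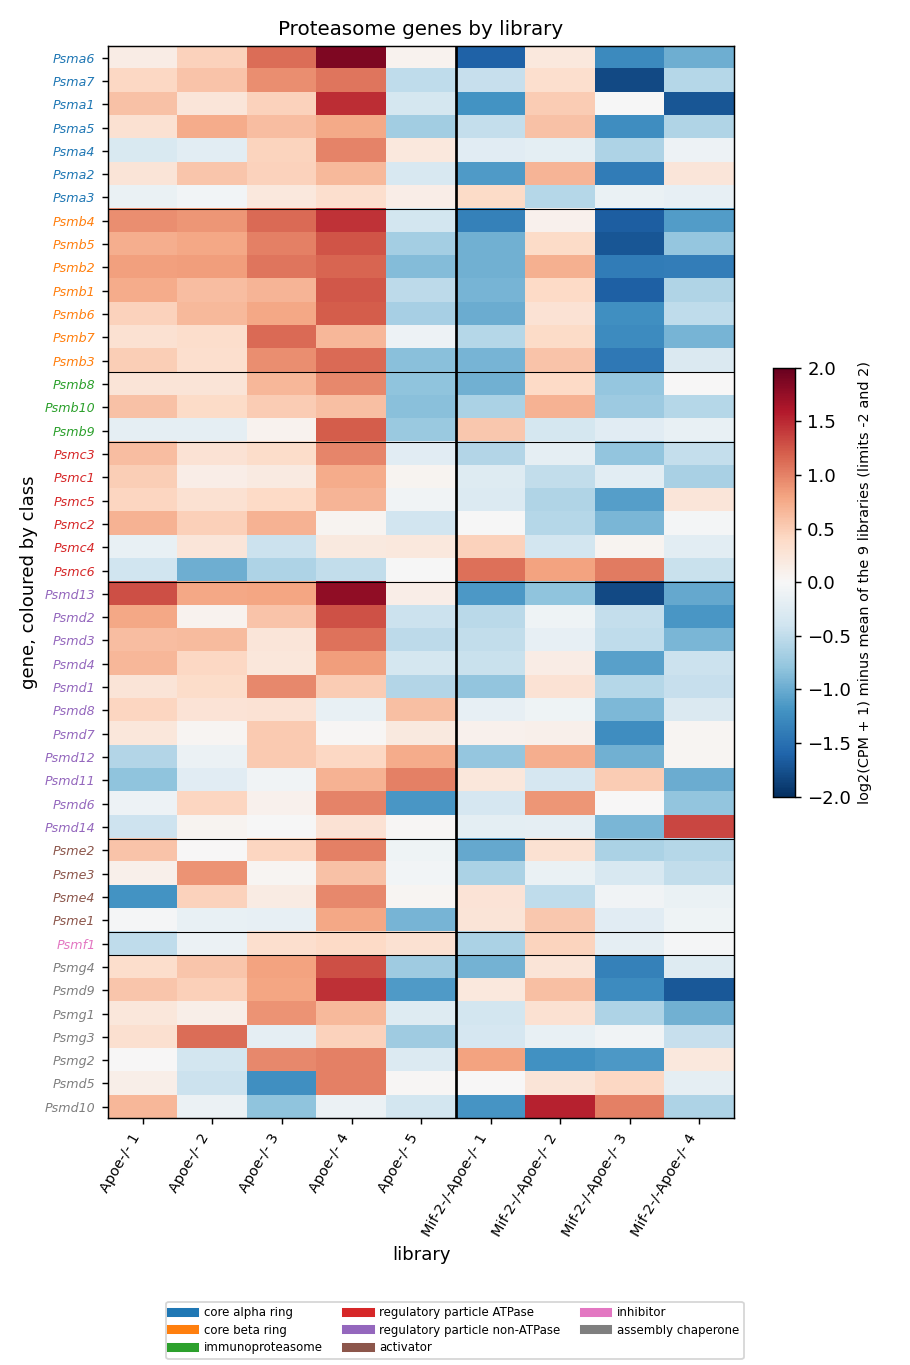
log2(CPM + 1) of the same 46 genes in each of the 9 libraries, minus the gene's mean over the libraries, grouped by class, with the genotypes parted by a black line. In the beta ring, Apoe-/- replicate 5 is pale blue, on the side of most Mif-2-/-Apoe-/- libraries, whose blue is often darker. Mif-2-/-Apoe-/- replicate 2 is pale red, on the side of the other Apoe-/- libraries.

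In the core particle all 7 alpha genes and all 7 beta genes had a fold change above 0, with medians of 0.75 and 1.17, and 8 of the 14 had an unadjusted p under 0.05, against the 6.52% given above for all genes. None of the 14 was called by edgeR over all genes and 1, Psmb4, was called by DESeq2. In all 7 beta genes Apoe-/- replicate 5 was the lowest library of its genotype, against 22.1% of all genes tested, and in all 7 Mif-2-/-Apoe-/- replicate 2 was the highest of its genotype, against 24.3% of all genes. For the alpha genes each count was 5 of 7.

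Psmb4, a non-catalytic beta subunit, had the largest fold change of the beta ring. It was at 325, 314, 374, 465 and 131 CPM in Apoe-/- replicates 1 to 5 and at 65.9, 181, 53.4 and 77.3 CPM in Mif-2-/-Apoe-/- replicates 1 to 4. The genotypes overlapped only through Apoe-/- replicate 5 and Mif-2-/-Apoe-/- replicate 2. The log2 fold change was 1.78 ± 0.44 (SE), with adjusted p values of 0.133 (edgeR) and 0.00797 (DESeq2). Psma6, an alpha ring subunit, led the alpha ring with 34.6, 43.4, 68.5, 117 and 32.7 CPM in Apoe-/- and 9.56, 36.3, 12.3 and 15.3 CPM in Mif-2-/-Apoe-/- libraries, so that 1 library of the latter reached into the range of the former. Its log2 fold change was 1.70 ± 0.54 (SE), with adjusted p values of 0.175 (edgeR) and 0.0508 (DESeq2). The lowest of the alpha ring was Psma3, at 37.0 to 52.0 CPM in Apoe-/- and 27.3 to 53.7 CPM in Mif-2-/-Apoe-/- libraries, with a log2 fold change of 0.19 ± 0.36 (SE). The lowest of the beta ring, Psmb3, still had a log2 fold change of 0.87 ± 0.45 (SE) with an edgeR adjusted p of 0.37.

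The constitutive catalytic subunits were called by neither test. Psmb5, which carries the chymotrypsin-like activity, was at 373, 385, 452, 541 and 140.0 CPM in Apoe-/- libraries against 115, 293, 67.8 and 131 CPM in Mif-2-/-Apoe-/- libraries. Psmb6, the caspase-like subunit and the most abundant proteasome transcript, was at 1047, 1187, 1294, 1752 and 475 CPM and at 381, 927, 322 and 534 CPM. Psmb7, the trypsin-like subunit, was at 42.1, 43.7, 75.6, 54.4 and 31.4 CPM and at 22.6, 44.3, 13.6 and 17.4 CPM. In each of them replicate 5 of Apoe-/- was the lowest of its genotype and replicate 2 of Mif-2-/-Apoe-/- lay above it. For Psmb6, replicate 4 of Mif-2-/-Apoe-/-, at 534 CPM, lay above Apoe-/- replicate 5 too. The log2 fold changes were 1.32 ± 0.45 (SE) for Psmb5, 1.09 ± 0.41 (SE) for Psmb6 and 1.02 ± 0.46 (SE) for Psmb7, with edgeR adjusted p values of 0.196, 0.23 and 0.302.

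The summed level of the 14 core genes was 3102, 3247, 3889, 4885 and 1456 CPM in the Apoe-/- libraries against 1174, 2728, 839 and 1455 CPM in the Mif-2-/-Apoe-/- libraries. The libraries with a high core sum were thus Apoe-/- replicates 1 to 4 and Mif-2-/-Apoe-/- replicate 2, which are also the 5 libraries with 20.5% or more of their counts in the 10 most abundant genes and with a hepatocyte marker sum of 137734 CPM or more. The other 4 libraries held 12.5% to 17.0% of their counts in those genes and a hepatocyte marker sum of at most 90638 CPM. These measures are nearly one, since Alb, Apoa1 and Ttr are among the 10 most abundant genes and make up most of the sum. The 6 other hepatocyte markers summed to 3156 to 4055 CPM in the former 5 libraries and to 1588 to 2245 CPM in the latter 4. The part of these library differences in the result was not tested, beyond a fit with the share as a covariate, in which the members' median exceeded that of all genes by 0.49 instead of 0.89 and 0 members were called. In sections of whole tissue, fewer cells of a type and less RNA per cell cannot be told apart.

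**Figure D3:**
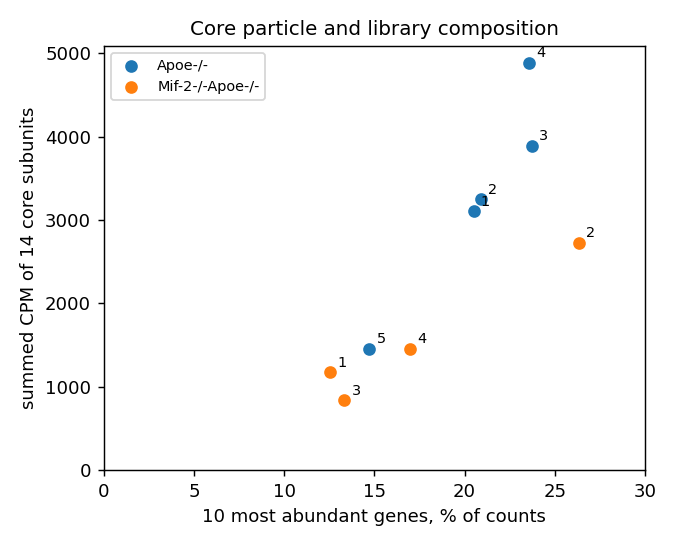
Summed CPM of the 14 core genes (vertical axis) against the percentage of counts in the 10 most abundant genes (horizontal axis), 1 point per library with its replicate number. The 5 libraries at 20.5% or more have core sums of 2728 to 4885 CPM, and the 4 libraries at 17.0% or less have sums of 839 to 1456 CPM, so Apoe-/- replicate 5 and Mif-2-/-Apoe-/- replicate 2 sit with the other genotype.

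The promoter stretches of the constitutive pair Psmb5 and Psmb6 and of the inducible Psmb8 are printed here from RefSeq (GRCm38.p6), 5′ to 3′ on the strand of the gene, as picked examples that hold a motif in letters. Capitals mark TGACNNNGC, the antioxidant response element core that Nfe2l1 and Nfe2l2 bind, in the first pair, and TTCNNNGAA, the gamma-activated site of interferon signalling, in Psmb8. Over the members as a whole, neither motif was more common than over all genes. These shares are not of the constitutive or inducible class, and Psmb7 has no promoter entry. TGACNNNGC was in 14.3% of the members with a promoter entry against 14.8% of all genes, and TTCNNNGAA in 7.14% against 8.92%. Psmb9 and Psmb10 did not hold TTCNNNGAA. The Psmb5 stretch is chr14:54617996-54618095 (minus strand), the 100 bases before the start, and the Psmb8 stretch is chr17:34198075-34198194 (plus strand), the 120 bases before the start. For Psmb6 the stretch is chr11:70525327-70525356 (plus strand), the 30 bases before the start used in the RefSeq promoter set. It lies within the RefSeq span of the gene, chr11:70525324-70527858, and not upstream of that span.
Psmb5: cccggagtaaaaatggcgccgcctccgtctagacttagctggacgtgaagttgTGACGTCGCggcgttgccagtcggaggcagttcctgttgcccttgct
Psmb6: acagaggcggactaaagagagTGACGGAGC
Psmb8: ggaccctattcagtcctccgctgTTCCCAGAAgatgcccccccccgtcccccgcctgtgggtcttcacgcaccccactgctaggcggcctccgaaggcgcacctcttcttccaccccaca

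None of the 3 immunoproteasome genes was called by edgeR or DESeq2 or had an unadjusted edgeR p under 0.05, and each had a smaller fold change than the subunit it replaces, a difference that was not tested. Their median log2 fold change was 0.52. Psmb8, which replaces Psmb5, was at 178, 177, 234, 290 and 84.2 CPM in Apoe-/- and at 75.8, 195, 86.2 and 149 CPM in Mif-2-/-Apoe-/- libraries, with a log2 fold change of 0.61 ± 0.39 (SE) that was 0.99 without Mif-2-/-Apoe-/- replicate 2 and 0.18 with the share of the 10 most abundant genes as a covariate. Psmb9, which replaces Psmb6, was at 38.1, 38.2, 45.5, 102 and 25.4 CPM and at 63.0, 33.5, 36.8 and 38.9 CPM, with a log2 fold change of 0.21 ± 0.44 (SE) that turned to -0.15 without Apoe-/- replicate 4. Psmb10, which replaces Psmb7, was at 379, 329, 357, 384 and 140.0 CPM and at 162, 407, 152 and 169 CPM, with a log2 fold change of 0.52 ± 0.39 (SE) that was 1.08 without Mif-2-/-Apoe-/- replicate 2 and 0.18 with the covariate. The genotypes overlapped in all 3 genes. The adjusted p values were 0.487, 0.866 and 0.554 by edgeR. Parts of the exons of Psmb9 and Psmb8 are shared with genes on the other strand, Tap1 over 212 bases and the predicted gene Gm20496 over 186 bases, and the method keeps no strand.

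Within a library, the ratio of an inducible to its constitutive subunit does not depend on the scaling. Psmb8 over Psmb5 was 0.476, 0.460, 0.519, 0.536 and 0.602 in the Apoe-/- libraries against 0.660, 0.667, 1.27 and 1.13 in the Mif-2-/-Apoe-/- libraries. The genotypes did not overlap, the ratio being higher in Mif-2-/-Apoe-/- livers, as it was for 6.52% of all genes set over Psmb5 in the same way. Psmb9 over Psmb6 was 0.0364, 0.0322, 0.0352, 0.0580 and 0.0534 against 0.165, 0.0362, 0.114 and 0.0728, and overlapped through Mif-2-/-Apoe-/- replicate 2. Psmb10 over Psmb7 ran from 4.46 to 9.0 in Apoe-/- and from 7.2 to 11.1 in Mif-2-/-Apoe-/- libraries and overlapped too. For the latter ratios, 5.31% and 6.42% of all genes did not overlap in that direction.

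**Figure D4:**
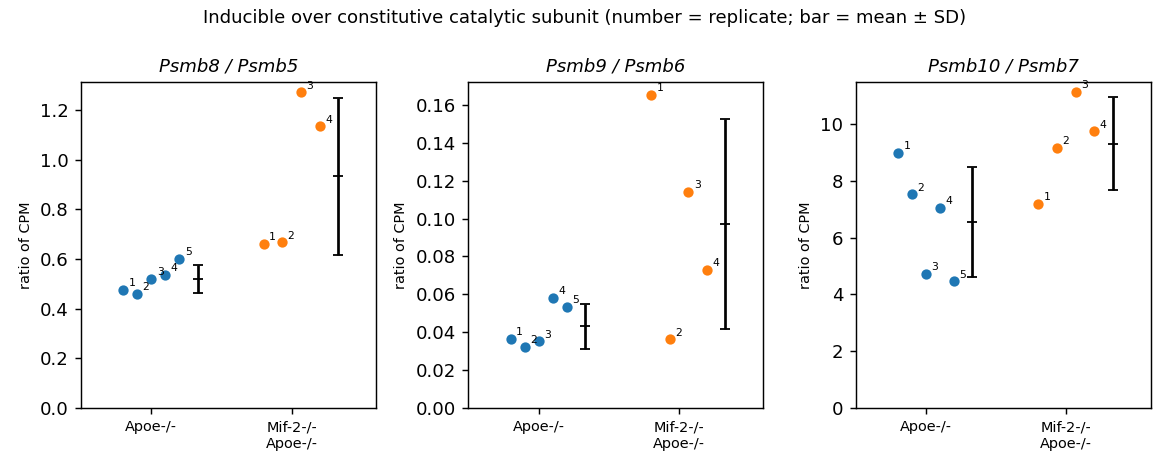
Ratio of CPM of each inducible catalytic subunit to the constitutive subunit it replaces, 1 point per library with its replicate number, and the mean ± SD of each genotype as a bar (n = 5 and n = 4). The Psmb8 to Psmb5 ratio is at most 0.602 in Apoe-/- and at least 0.660 in Mif-2-/-Apoe-/- libraries, and the other 2 ratios overlap.

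Of 8 antigen processing and interferon genes, 4 had a fold change above 0, against 43.5% of all genes. The median was 0.08, and 0 were called by edgeR or DESeq2. B2m, the light chain of MHC class I, had the highest value of the list at 0.75 ± 0.45 (SE), and Tap1, a peptide transporter subunit encoded beside Psmb9, the lowest at -0.67 ± 0.40 (SE). The lymphocyte markers were low throughout, with 10 genes summing to 24.4 to 46.7 CPM in Apoe-/- and 36.3 to 96.0 CPM in Mif-2-/-Apoe-/- libraries. The sum of 11 Kupffer cell and macrophage markers was 1408 to 3324 CPM and 1678 to 2306 CPM, with Apoe-/- replicate 5 again the lowest of its genotype. The part of these cells in the result was not tested.

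In the regulatory particle 15 of 17 genes had a fold change above 0, against 43.5% of all genes tested, and the median was 0.71. Psmd13 was the 1 gene called by edgeR, and DESeq2 called Psmd13 and Psmc3. Over all genes the shares called were 0.13% by edgeR and 4.93% by DESeq2. Psmd13 (chr7:140882394-140898642, GRCm38.p6, plus strand) encodes a lid subunit, known in yeast as Rpn9, that helps to hold the lid together. It was at 149, 104, 105, 209 and 66.2 CPM in Apoe-/- libraries against 26.6, 34.1, 16.6 and 29.3 CPM in Mif-2-/-Apoe-/- libraries, from counts of 224 to 1087 and of 60 to 131. Every Apoe-/- library lay above every Mif-2-/-Apoe-/- library, the lowest of the former at 66.2 and the highest of the latter at 34.1 CPM. The log2 fold change was 2.25 ± 0.40 (SE), with adjusted p values of 0.045 (edgeR) and 4.44e-06 (DESeq2).

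The fold change of Psmd13 stayed between 1.97 and 2.49 in all 18 alternatives that gave one, while its edgeR call did not. With each library left out in turn it was called in 2 of 9 fits, those without Apoe-/- replicate 5 (adjusted p = 0.0126) and without Mif-2-/-Apoe-/- replicate 2 (adjusted p = 0.0283). It lost the call without Apoe-/- replicate 1, 2, 3 or 4 (adjusted p = 0.137, 0.0881, 0.0842 and 0.0997) and without Mif-2-/-Apoe-/- replicate 1, 3 or 4 (adjusted p = 0.0933, 0.147 and 0.112), and with the share of the 10 most abundant genes as a covariate (adjusted p = 0.0619).

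Psmd13 also differed relative to its own particle, from the same Psmd13 values as above and not as a separate observation. Taken as a percentage of the summed CPM of the other 16 regulatory particle genes, it was 4.81%, 3.68%, 3.80%, 5.49% and 3.13% in the Apoe-/- libraries against 1.40%, 1.62%, 1.12% and 1.65% in the Mif-2-/-Apoe-/- libraries. The genotypes did not overlap, and Apoe-/- replicate 5 and Mif-2-/-Apoe-/- replicate 2 stayed with their own genotype. Of all genes set over the same sum, 0.576% were likewise separate and higher in Apoe-/- livers.

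Psmd13 lies head to head with Sirt3, which encodes a mitochondrial deacetylase on the minus strand, and the RefSeq starts of the pair are 84 bases apart. The stretch between them, with the first 10 bases of Psmd13, is shown because both genes start from it. It is chr7:140882310-140882403 on the plus strand, from RefSeq (GRCm38.p6), and the capitals mark CCGGAAGT, a core that ETS factors bind, which runs across the Psmd13 start.
Psmd13: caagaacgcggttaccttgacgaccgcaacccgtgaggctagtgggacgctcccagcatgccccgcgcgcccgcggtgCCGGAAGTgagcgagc
The values of Sirt3 leaned the other way. It was at 422, 349, 202, 299.7 and 163 CPM in Apoe-/- and at 603, 335, 264 and 395 CPM in Mif-2-/-Apoe-/- libraries, which overlap, with a log2 fold change of -0.47 ± 0.35 (SE) and an edgeR adjusted p of 0.544. Of the 8 protein-coding genes tested within 50000 bases of Psmd13, 1 had a fold change above 0 (Urah, 1.05 ± 0.51 (SE), adjusted p = 0.336) and 0 were called by edgeR or DESeq2, with 1, Nlrp6, at an unadjusted edgeR p under 0.05. Over all genes 43.5% were above 0, and 1515 of 16860 had such a p and were lower in Apoe-/- livers, as Nlrp6 was. In GENCODE M21 the exons of Psmd13 and Sirt3 share 152 bases, 7.64% of the Psmd13 exon length of 1989 bases.

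Of the 6 genes of the ATPase ring, 5 had a fold change above 0, against 43.5% of all genes, with a median of 0.71. Psmc3 was at 492, 390.3, 411, 628 and 272 CPM in Apoe-/- and at 211, 281, 185 and 229 CPM in Mif-2-/-Apoe-/- libraries, overlapping only by the lowest of the one and the highest of the other. Its log2 fold change was 0.95 ± 0.31 (SE), with adjusted p values of 0.177 (edgeR) and 0.0322 (DESeq2). Psmc1 was at 93.0, 72.3, 74.6, 111 and 68.3 CPM against 55.1, 46.6, 56.7 and 41.6 CPM, and here replicate 2 of Mif-2-/-Apoe-/- was the third of its 4 libraries in rank. The genotypes did not overlap, while the log2 fold change of 0.74 ± 0.32 (SE) had adjusted p values of 0.281 (edgeR) and 0.0945 (DESeq2). Mif-2-/-Apoe-/- replicate 2 was the highest of its genotype in 1 of the 6 ATPase genes, 9 of the 11 non-ATPase genes and 7 of the 7 beta ring genes, beside the 24.3% of all genes given above.

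Psmc4, of the same ring, was at 252, 329, 207, 319.7 and 322 CPM in Apoe-/- and at 382, 215, 289.8 and 242 CPM in Mif-2-/-Apoe-/- libraries, with a log2 fold change of 0.02 ± 0.29 (SE) and an edgeR adjusted p of 0.986. Psmc6 was scarce, at 2.88, 1.61, 2.35, 2.62 and 4.07 CPM against 9.96, 7.95, 9.57 and 2.74 CPM, from counts of 5 to 49, and had the lowest fold change of the ring at -1.47 ± 0.85 (SE), with an edgeR adjusted p of 0.428. Of its Mif-2-/-Apoe-/- libraries, 3 lay above all Apoe-/- libraries and replicate 4 lay among them. The ATPases stand in the ring in equal number. Psmc6 transcripts were at 1.21 ± 0.40 CPM per kilobase of exon in Apoe-/- livers (SD, n = 5) and Psmc5 transcripts at 278 ± 50.8 (SD, n = 5). The counting tool and annotation behind these counts are not given in the sources used here. Whether reads of Psmc6 were lost in counting was not tested.

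Of the 11 non-ATPase genes, Psmd13 among them, 10 had a fold change above 0, against 43.5% of all genes, and the median was 0.65. Psmd2, the ubiquitin-binding scaffold of the base, was at 229, 140.4, 198, 324 and 98.3 CPM against 91.3, 126, 95 and 59.0 CPM, with a log2 fold change of 1.10 ± 0.38 (SE) and an edgeR adjusted p of 0.195. Psmd3, a lid subunit, had a log2 fold change of 1.0 ± 0.34 (SE), and Psmd4, a ubiquitin receptor and the most abundant of the class, 0.80 ± 0.33 (SE), with edgeR adjusted p values of 0.188 and 0.272. Psmd11 and Psmd12, also of the lid, had fold changes of 0.31 ± 0.43 (SE) and 0.36 ± 0.45 (SE), and for both Apoe-/- replicate 5 was the highest library of its genotype, at 144 and 66.4 CPM. Psmd14, the deubiquitinase of the lid, had the lowest value of the class, -0.29 ± 0.72 (SE), at 6.17 to 10.7 CPM against 4.03 to 23.1 CPM, and turned to 0.46 without Mif-2-/-Apoe-/- replicate 4. The ratio of the summed core to the summed regulatory particle was 0.955, 1.10, 1.35, 1.21 and 0.668 in Apoe-/- and 0.608, 1.28, 0.558 and 0.808 in Mif-2-/-Apoe-/- libraries, with the same 2 libraries on the side of the other genotype.

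**Figure D5:**
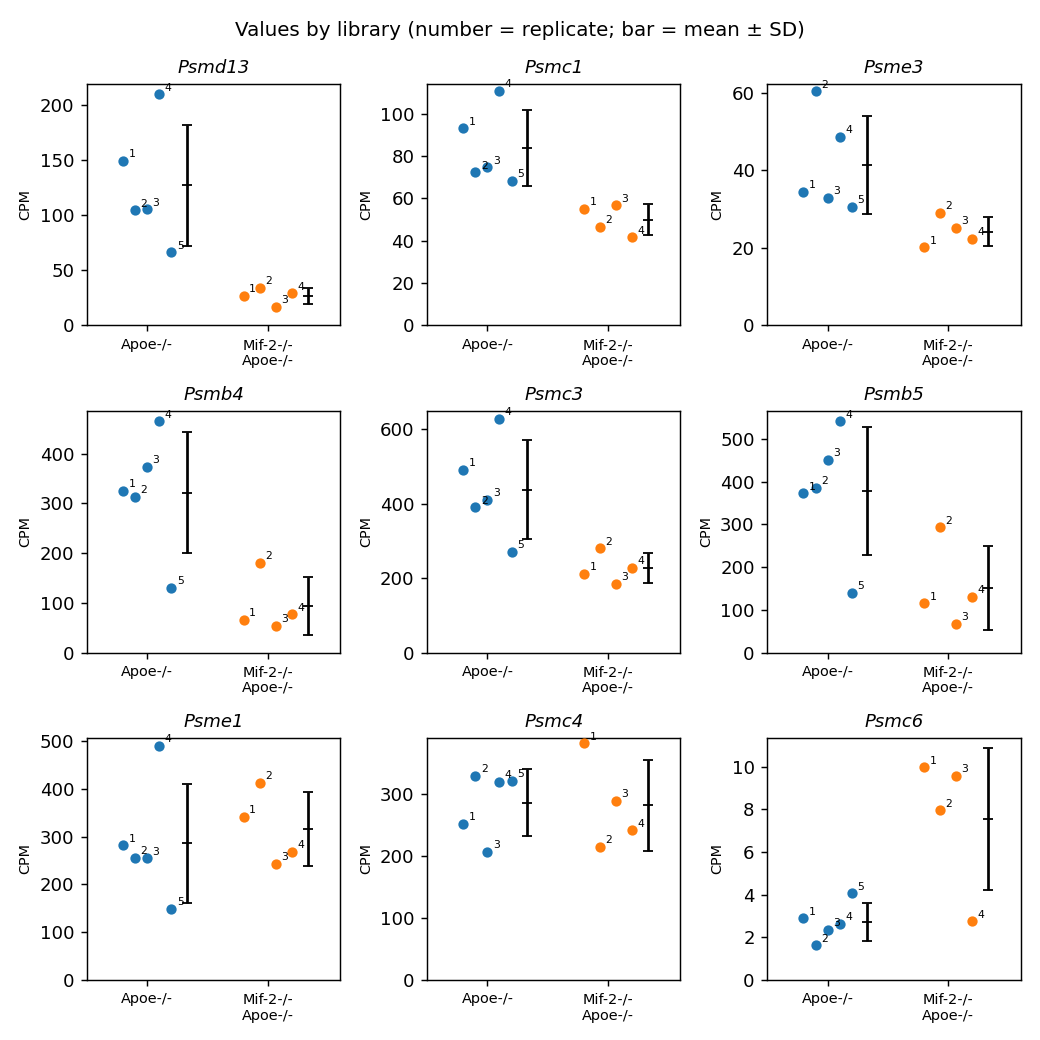
CPM of 9 proteasome genes in each library (points, with the replicate number) and the mean ± SD of each genotype (bar, n = 5 Apoe-/- and n = 4 Mif-2-/-Apoe-/- libraries), each axis starting at 0. Psmd13, Psmc1 and Psme3 do not overlap between the genotypes, Psmb4, Psmc3 and Psmb5 overlap through Apoe-/- replicate 5 and Mif-2-/-Apoe-/- replicate 2, and Psme1, Psmc4 and Psmc6 overlap more or lie the other way.

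Of the 4 activators 3 had a fold change above 0, and 0 were called by edgeR or DESeq2, with 1 at an unadjusted edgeR p under 0.05. Over all genes 43.5% were above 0, and 6.52% had such an unadjusted p and were higher in Apoe-/- livers. Psme1 and Psme2 encode the partner subunits of the interferon-inducible activator ring, and both lie on chromosome 14. Psme2 was at 286, 193, 261, 386 and 181 CPM in Apoe-/- and at 93.9, 238, 123 and 129 CPM in Mif-2-/-Apoe-/- libraries, with a log2 fold change of 0.84 ± 0.35 (SE) and an edgeR adjusted p of 0.272. Psme1 was at 282, 256, 254, 490.0 and 149 CPM against 342, 413, 243 and 268 CPM, with a log2 fold change of -0.14 ± 0.34 (SE), an edgeR adjusted p of 0.884 and a sign that changed to 0.04 with TMMwsp scaling. The difference between the partners was not tested. Psme3, which forms the nuclear activator ring, was at 34.4, 60.3, 32.9, 48.6 and 30.6 CPM against 20.1, 29.0, 25.2 and 22.4 CPM. Its genotypes did not overlap, by 30.6 against 29.0 CPM, and the log2 fold change was 0.78 ± 0.41 (SE), with adjusted p values of 0.377 (edgeR) and 0.179 (DESeq2). Psme4, a large nuclear activator that acts on acetylated histones, was at 6.31 to 31.6 CPM against 10.8 to 19.1 CPM, with a log2 fold change of 0.35 ± 0.58 (SE). Psmf1, the inhibitor, was at 48.7 to 92.5 CPM against 44.7 to 95.4 CPM, with a log2 fold change of 0.17 ± 0.34 (SE).

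Of the 7 assembly chaperones 5 had a fold change above 0, against 43.5% of all genes, with a median of 0.59. By edgeR or DESeq2 0 were called. Beside 6.52% of all genes with an unadjusted edgeR p under 0.05 and a higher level in Apoe-/- livers, 1 chaperone met this rule. That gene was Psmg4, a partner in alpha ring assembly, at 53.2, 61.4, 72.8, 102 and 25.0 CPM in Apoe-/- and 20.9, 49.4, 15.6 and 34.5 CPM in Mif-2-/-Apoe-/- libraries, with a log2 fold change of 1.07 ± 0.47 (SE) and an edgeR adjusted p of 0.298. Psmd10, a chaperone of the base also called gankyrin, was the lowest at -0.76 ± 0.95 (SE), from counts of 4 to 51. Over the 9 libraries the log2 level of Psmg4 had a Pearson r of 0.97 with the mean of the 14 core genes, as a description of libraries that share their composition, and the other 6 chaperones spread from 0.91 (Psmg1), 0.84 (Psmd9), 0.56 (Psmg3) and 0.37 (Psmg2) to 0.06 (Psmd10) and -0.09 (Psmd5).

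The rest of the genes under the symbol rule are of another kind. Psmb11, the thymic catalytic subunit encoded next to Psmb5, had 200 counts (38.7 CPM) in Apoe-/- replicate 5 and 0 in the other 4 Apoe-/- libraries, and 0, 10, 13 and 29 counts in Mif-2-/-Apoe-/- libraries, so no fold change is given. Psmc3ip, a meiotic recombination factor, had 23, 8, 17, 1 and 102 counts in Apoe-/- and 0, 0, 1 and 1 counts in Mif-2-/-Apoe-/- libraries. DESeq2 gave it an adjusted p of 0.0204 and edgeR 0.167, and with so few counts in Mif-2-/-Apoe-/- livers no fold change is given. Of its exon length 29.8% is shared with Mlx on the other strand. Psme3ip1, a nuclear protein that binds Psme3, had a log2 fold change of -0.52 ± 0.44 (SE).

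Of 15 tested genes that assemble, regulate or serve the proteasome, 9 had a fold change above 0, the median was 0.35, 0 were called by edgeR (3 at an unadjusted p under 0.05, each higher in Apoe-/- livers) and 1 by DESeq2. The latter was Pomp, the maturation factor that helps the beta ring onto the alpha ring, with a log2 fold change of 1.55 ± 0.42 (SE) and adjusted p values of 0.144 (edgeR) and 0.0173 (DESeq2). Ddi2, the protease that activates Nfe2l1, had the lowest value of these at -0.73 ± 1.06 (SE). Nfe2l1 itself was at 0.35 ± 0.36 (SE), with an edgeR adjusted p of 0.686. Of the 5 ubiquitin and E1 enzyme genes tested, 4 had a fold change above 0, with a median of 0.66, and 0 were called by edgeR or DESeq2, with 1 at an unadjusted edgeR p under 0.05. Both lists stand beside 43.5% of all genes above 0 and 4.93% called by DESeq2. Over all genes, 6.52% had an unadjusted edgeR p under 0.05 and were higher in Apoe-/- livers.

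Levels per kilobase of exon (GENCODE M21) put the catalytic Psmb6 first, at 1442 ± 578 CPM per kilobase in Apoe-/- and 678 ± 341 in Mif-2-/-Apoe-/- libraries (SD, n = 5 and n = 4). Psmb3 followed at 553 ± 237 and 302 ± 187 CPM per kilobase, and Psmb5 was next in Apoe-/- livers at 421 ± 166 CPM per kilobase. In Mif-2-/-Apoe-/- livers Psmb5 was at 169 ± 109 and Psme1, Psmd4, Psmc4 and Psmb10 lay above it by mean, at 285, 206, 196 and 169.8 CPM per kilobase. In the alpha ring Psma7 led at 263 ± 95.1 and 128 ± 70.6, and the lowest were Psma3, at 15.5 ± 2.12 CPM per kilobase, in Apoe-/- livers and Psma1, at 11.3, in Mif-2-/-Apoe-/- livers. In Apoe-/- livers the means of Psmb3 and Psmb5 differed by less than the SD between libraries, and those of Psmb6 and Psmb3 by more. The genes were measured in the same libraries, so this SD does not judge their order, which was not tested. The fold change moved with transcript length in this table. Over 16028 genes with an exon length, the median log2 fold change was 0.33 for genes under 1500 bases and -0.25 for longer ones. For the 23 proteasome genes under 1500 bases it was 0.75 and for the 24 longer ones 0.68. The part of transcript length in the result was not tested.

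Promoters of 42 of the 49 genes were in the RefSeq table (GRCm38.p6, 250 bases before to 50 after the start), which has no entry for Psmb1, Psmb2, Psmb7, Psmc3, Psmd3, Psmd7 and Psmg2. Of 8 motifs searched on both strands by their letters, the one with the largest excess in percentage points was CCGGAAGT, in 9 of 42 (21.4%) against 5.69% of 17492 protein-coding genes. It stood in the promoters of Psma6, Psmc1, Psmc2, Psmd6, Psmd12, Psmd13, Psme3, Psme4 and Psmg3. In Psma6, Psmc2, Psmd6, Psmd12, Psme4 and Psmg3 the genotypes overlapped, and Psmd13, Psmc1 and Psme3 are the 3 genes in which they did not. The motif was singled out from the 8 by its excess, and a link between it and these 3 genes, which were picked from the same data, was not tested. Psmd13 is printed above, and the stretches of the other 2 follow from the same table, Psmc1 at chr12:100110122-100110201 (the 80 bases before the start) and Psme3 at chr11:101316133-101316222 (80 bases before to 10 after the start), both on the plus strand, with the motif in capitals on the other strand.
Psmc1: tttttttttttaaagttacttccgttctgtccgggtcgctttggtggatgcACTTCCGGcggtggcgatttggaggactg
Psme3: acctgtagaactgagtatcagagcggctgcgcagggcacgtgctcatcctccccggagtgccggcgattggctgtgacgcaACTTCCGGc
The interferon-stimulated response element, written as GAAA, any 2 bases and GAAA, was in 5 of 42 (11.9%) against 3.94%, in Psmb3, Psmd4, Psmd9, Psme1 and Psmg4. TGACNNNGC was in 6 of 42 (14.3%) against 14.8%, in Psmb5, Psmb6, Psmc6, Psmd9, Psmd12 and Psme4, and TTCNNNGAA in 3 of 42 (7.14%) against 8.92%, in Psmb8, Psmd2 and Psmg1. CCAAT was in 38.1% against 42.3%, GGGCGG in 57.1% against 49.2%, CACGTG in 11.9% against 8.91% and AAGATGGC in 7.14% against 3.57%. A match in letters is a description of the window and not a site.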

How the data were processed

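The 9 liver libraries were grouped by genotype as labelled. The authors deposited raw counts of reads on each gene, listed by Entrez identifier and not normalized. The submitters' processing notes name FastQC, cutadapt, HISAT2 and the mm10 build, and the counting tool and annotation are not given in the sources used here. Symbols came from RefSeq gene names of GRCm38.p6 (25275 of 27179 identifiers matched), and 1 extra header line was left out. A gene was kept if 3 or more libraries of 1 genotype had a count, the 10 with the highest mean CPM were removed, and 16860 were tested with edgeR 4.0.16 (quasi-likelihood, TMM, Benjamini-Hochberg adjustment) under R 4.3.3. DESeq2 1.42.0 was the main alternative. The SE is the log2 fold change over the square root of F. The fit was tested on simulated data. Exon lengths and overlaps came from GENCODE M21, with Python 3.11.15, pandas 2.3.3 and matplotlib 3.10.9.

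The genes, classes, lists and motifs were chosen with earlier results of these data known, and the share of the 10 highest genes as a covariate was added after seeing the data. The named genes are Psmd13, the catalytic pairs, the activators and inhibitor, genes called by edgeR or DESeq2, the highest and lowest fold change of each class of 4 or more, and genes without overlap. Psmc4 and other genes named beside these were chosen after their values were seen. Libraries of a genotype differed beyond counting noise (chi-square per degree of freedom of at least 25.1), so none was treated as the same library sequenced again. This check cannot tell whether 2 libraries came from 1 mouse, since separate libraries of 1 mouse can differ beyond counting noise too. Further lists covered endothelial (6 genes), stellate (5) and cholangiocyte (4) markers, none with a call by edgeR or DESeq2, with medians of 0.53, -0.36 and -0.13, lymphocyte markers (10 genes, median -0.78), Kupffer cell markers (11 genes, median 0.47, Cd5l called by DESeq2) and hepatocyte markers (6 tested, median 0.24). Psme2b and Psm pseudogenes were not analysed here. Protein sequences were not used here, and some genes of the lists are not reported here.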

Additional observations from a re-analysis of the deposited data

Results flagged for a closer look

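Of 98 groups (49 genes in each of 2 genotypes), 7 held a library far from the others by Dixon's criterion. For independent groups chance gives about 1 in 20, or 4.9. These genes were measured in the same libraries and many vary together, so 7 against 4.9 is no test. Psmb2 was at 40.8 CPM in Apoe-/- replicate 5, against 133 to 169 CPM in the other 4, and at 124 CPM in Mif-2-/-Apoe-/- replicate 2, against 27.7 to 38.0 CPM in the other 3. Psmb10 was at 140.0 CPM in Apoe-/- replicate 5, against 329 to 384 CPM, and at 407 CPM in Mif-2-/-Apoe-/- replicate 2, against 152 to 169 CPM. For Psmb2 the library that stood apart lay in the range of the other genotype. Psmb11 was at 38.7 CPM in Apoe-/- replicate 5 and at 0 in the other 4. Psmb9 was at 102 CPM in Apoe-/- replicate 4, against 25.4 to 45.5 CPM, and Psmd7, a lid subunit, at 24.9 CPM in Mif-2-/-Apoe-/- replicate 3, against 62.0 to 64.7 CPM.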

How the results depend on the processing

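The number of called genes was 1 with edgeR under RLE or TMMwsp scaling, other filters, the 10 highest genes kept, mitochondrial, rRNA, Gm and Rik genes removed, and other thresholds. It was 4 with DESeq2, 0 with the share of the 10 highest genes as a covariate (where the median exceeded that of all genes by 0.49), and 0 to 4 with a library left out, at 2 without Apoe-/- replicate 5 (Psmb4 and Psmd13) and 4 without Mif-2-/-Apoe-/- replicate 2 (Psmb2, Psmb4, Psmb5 and Psmd13). Calls over all genes rose as well, from 22 of 16860 in the main fit to 126 of 16215 and 262 of 16335 in these 2 fits. For 5 proteasome genes, each higher in Apoe-/- livers, the genotypes did not overlap with the 10 highest genes kept, against 2.59% of all genes. The count was also 5, against 2.61%, with mitochondrial, rRNA, Gm and Rik genes removed. With a library left out this was 3 to 16, at 16 without Apoe-/- replicate 5 and 16 without Mif-2-/-Apoe-/- replicate 2, against 6.31% and 6.13% of all genes higher in Apoe-/- livers. With the replicate block 7 proteasome genes were called (6 higher in Apoe-/- livers, and Psmb11 lower), against 560 of 16860 genes over all. Number 5 exists only in Apoe-/-, so in that fit Apoe-/- replicate 5 did not enter the difference between genotypes. The numbers did not pair the libraries (correlations of 0.12, 0.01, 0.06 and -0.01, with 1 of 4 Apoe-/- libraries closest to its own number). Psme1 turned to 0.0392 under TMMwsp, and with a library left out it ran from -0.35 to 0.11, Psmb9 from -0.15 to 0.45 and Psmd14 from -0.56 to 0.46. The cause was not tested. Of 413 values of 23 named genes, 390 kept direction and side of the threshold. The median of all genes moved from -0.17 to 0.0015 under TMMwsp. Genes with few counts, such as Psmc6 and Psmd10, could show only large differences at this depth.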
